A study of Mus musculus with 2 samples.

Results

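The nuclear genes of the mitochondrial respiratory chain were followed in endothelial cells (EC) of the mouse embryo. Members were the protein-coding entries of the deposited RNA-seq table whose symbols begin with Ndufa, Ndufb, Ndufc, Ndufs or Ndufv, Uqcr or Atp5, or are Sdha to Sdhd, Cyc1, Cycs or a Cox symbol numbered from 4 to 8 and followed by a, b or c, which left out Cox4i1. This gave 80 members among 12684 genes, with 38 in complex I, 4 in complex II, 8 in complex III, 13 in complex IV and 17 in complex V. Ndufa4 was counted with complex IV, to which its product is now assigned. The symbols Ndufaf1 and Ndufaf2 belong to complex I assembly factors, and Atp5s and Atp5sl to proteins that resemble subunits, so 4 members are not structural parts of a complex. Cycs and Ndufb1 had no entry under those symbols and were not analysed here, and the table held 0 genes of the mitochondrial genome.

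The respiratory chain sits in the inner mitochondrial membrane and passes electrons from NADH (complex I) and succinate (complex II) through coenzyme Q, complex III and cytochrome c to oxygen at complex IV. Complexes I, III and IV pump protons, and complex V, the ATP synthase, uses the returning protons to make ATP. Most subunits are encoded in the nucleus, while the mitochondrial genome encodes a few of the central ones in every complex except complex II. Endothelium is known for drawing much of its ATP from glycolysis, while its respiratory chain also supports growth by keeping electron carriers oxidized.

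Both libraries were made from the AGM (aorta, gonads and mesonephros) of embryos at E10.5, where hemogenic endothelium (HE) gives rise to the first hematopoietic stem cells. Bulk EC were the CD31+, CD117- and CD45- cells of wild-type (WT) littermates, with no reporter in the gate. GFP-depleted EC had the same surface phenotype and came from Runx1+23GFP transgenic embryos, in which an enhancer of Runx1 drives GFP, and the GFP+ cells were gated out. By the genotype labels and the design text the 2 groups differed in the transgene as well as in the gate, although the strain label reads Runx1+23GFP for both, the number of embryos pooled is not given in the sources used here, and no treatment was named. With 1 library in each group, there is no replicate check on any difference, and no p-value or SD was computed.

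Levels are RPKM, reads scaled by gene length and by library depth to set genes and libraries side by side. Other scaling moved the ratios, as given below, and how reads with several matches were placed is not known. Read depth, recovered from the steps between low values, was about 110000000 reads in bulk EC against 14600000 in GFP-depleted EC, a 7.50-fold difference. Intervals beside folds are 95% exact intervals from approximate read numbers, and they hold counting error alone, as reads copied by PCR are not separate molecules. The 10 endothelial markers were all listed and summed to 1279 RPKM in bulk EC against 1351 in GFP-depleted EC, and 1 of them passed 1.5 fold, Eng, at 63.0 against 10.2 RPKM. All 8 listed erythroid genes (of 10) were over 1.5-fold higher in bulk EC, with summed levels of 897.6 and 452.2 RPKM. All 8 listed megakaryocyte genes (of 10) were also higher there, with summed levels of 1251 and 88.0 RPKM, and Gp6 was listed at 0 in GFP-depleted EC. These blood cell levels differed between the libraries beside every respiratory chain difference given here, and their part in those differences was not tested. In sorted bulk RNA, fewer cells of a type and less RNA per cell cannot be told apart.

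As a group, the respiratory chain genes were strongly expressed in both libraries, at nearly equal median levels. The median member stood at 370.5 RPKM in bulk EC against 367.8 RPKM in GFP-depleted EC, against 8.85 and 8.08 RPKM for the median protein-coding gene. In bulk EC 67 of the 80 members, and in GFP-depleted EC 64, lay at or above the 90th percentile of protein-coding genes. Their share of the sum of all RPKM values was 5.61% in bulk EC against 5.36% in GFP-depleted EC. Complex I contributed 2.45% and 2.40%, complex V 1.24% and 1.25%, complex III 0.41% and 0.39%, and complex II 0.18% and 0.20%. The share of complex IV was 1.33% in bulk EC against 1.12% in GFP-depleted EC, the largest gap among the complexes in percentage points. The highest member was Atp5o, which encodes a peripheral stalk subunit of ATP synthase, at 1865 RPKM in bulk EC against 1886 in GFP-depleted EC, and 44.0% of its exonic bases are shared with other genes. Ndufc1, an accessory subunit gene of complex I, followed at 1785 and 1554 RPKM. At the other end, 5 members were below 10 RPKM in both libraries.

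**Figure D1:**
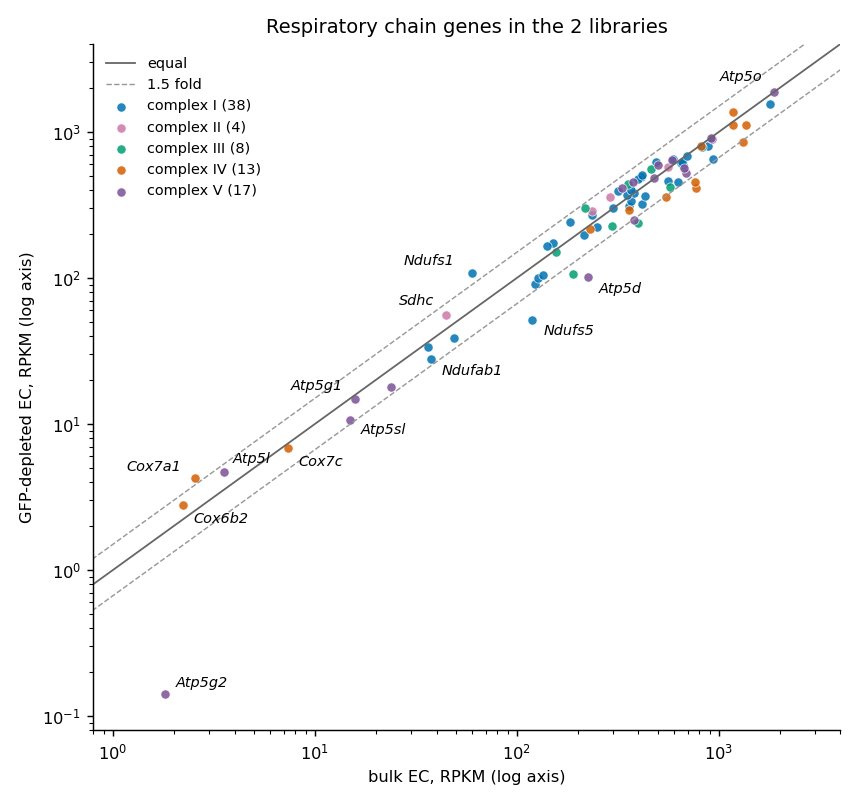
RPKM of each of the 80 members in bulk EC (x axis) and GFP-depleted EC (y axis), both on log axes, with 1 point per gene colored by complex. The solid line marks equal values and the dashed lines 1.5 fold. Most points lie above 100 RPKM and between the dashed lines, and Atp5g2 stands apart at 1.80 and 0.14 RPKM.

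With the fold of the study (a plain ratio above 1.5) and at least 0.3 RPKM in 1 library, 10 of 80 members (12.5%) were higher in bulk EC, where 23.6% of all genes were. In the other direction, 2 members (2.5%) were higher in GFP-depleted EC, where 15.3% of all genes were. The other 68 members were within 1.5 fold. The study compared genes of at least 0.3 RPKM without saying in which library, and with that level asked of both, Atp5g2 dropped out and 9 members were higher in bulk EC. Restricting the background to protein-coding genes gave 23.8% and 13.4%. Genes with many reads passed the threshold less often: of 1202 protein-coding genes with a mean of at least 100 RPKM, 9.9% were called toward bulk EC and 3.66% toward GFP-depleted EC. Of the 66 members above that level, 8 were called toward bulk EC and 0 toward GFP-depleted EC. Against this background, nothing particular to the respiratory chain was read from the counts.

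Ratios are given as log2 of GFP-depleted over bulk EC after 0.3 RPKM was added to both, so negative ratios stand for higher levels in bulk EC, and the addition understates differences of low genes. The median over the members was -0.08, against -0.02 over all genes and -0.03 over protein-coding genes, and it moved to 0.04 after the trends on GC content and length were subtracted (0.07 over all genes) and to 0.01 among members without copies elsewhere in the genome. Among genes with a mean of at least 100 RPKM, the median was -0.07 over the 66 members and 0.12 over the protein-coding genes. The interquartile range was 0.58 for the members and 0.84 for protein-coding genes, and it was 0.52 for the protein-coding genes of at least 100 RPKM. In all, 49 members had a negative ratio and 31 a positive one, where all genes had 6522 and 6162 and the protein-coding genes of at least 100 RPKM had 483 and 719. Within 0.5 of 0 were 67 members (83.8%), 57.8% of all genes and 80.8% of the protein-coding genes at that level. Counting error was small beside these ratios. The median interval reached 0.05 on the log2 scale to either side, and 42 members had a whole interval on the bulk EC side of equality, 25 had one on the GFP-depleted side, and 13 had an interval that held 1.

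**Figure D2:**
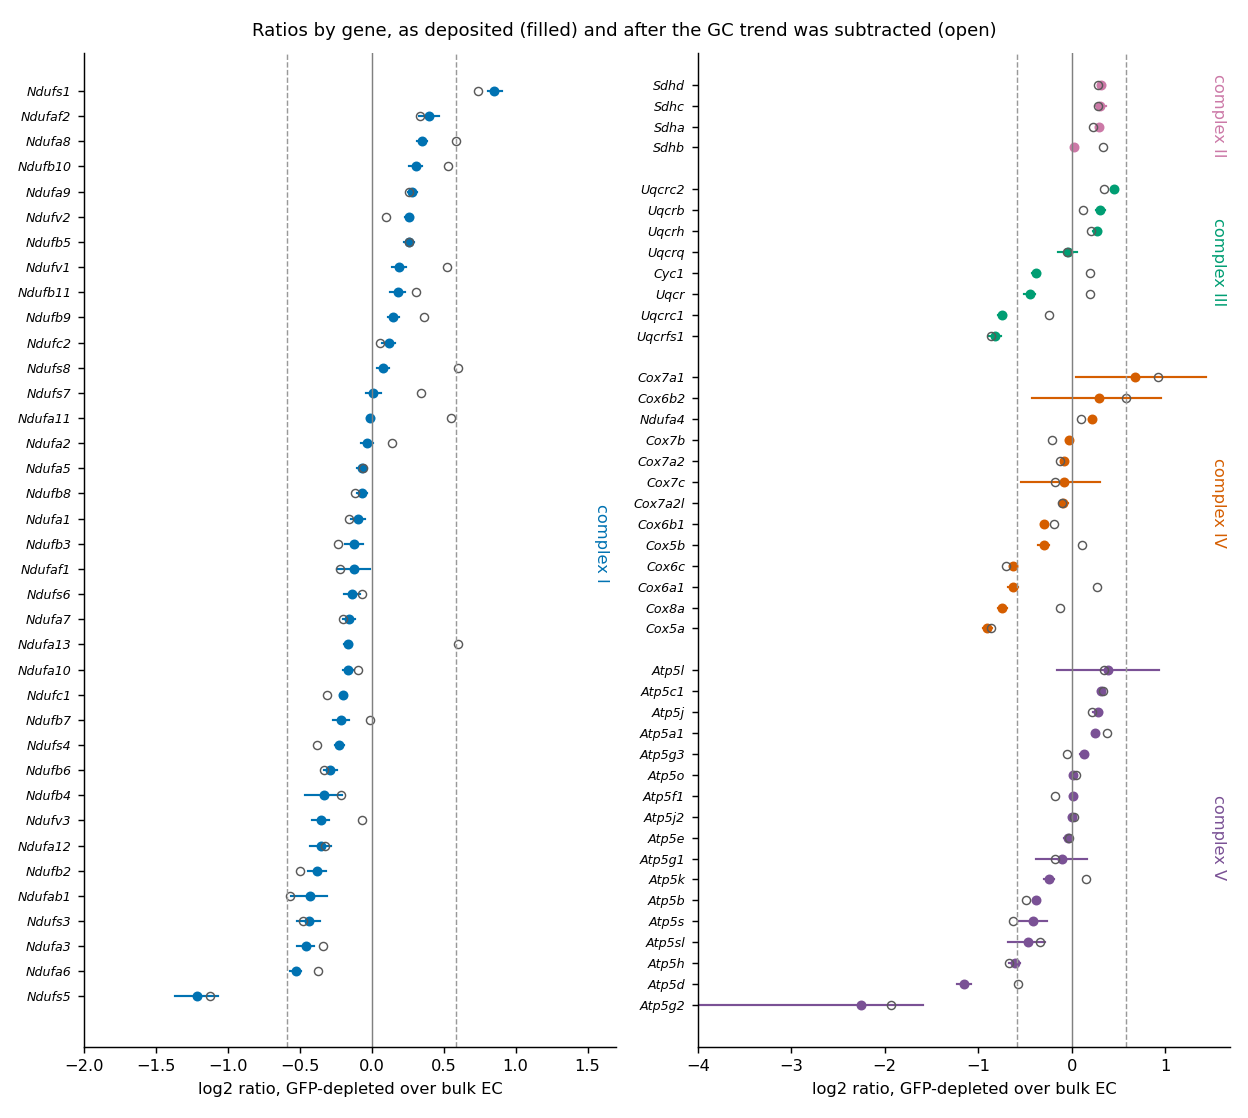
Log2 ratio (GFP-depleted over bulk EC) of the members by gene, complex I on the left and complexes II to V on the right, with different x ranges. Filled points are the deposited values, bars their 95% counting intervals (that of Atp5g2 is cut at the left edge), open points the ratios after subtraction of the GC trend, and dashed lines 1.5 fold. Filled points of 12 members lie outside the dashed lines, 10 of them on the bulk EC side, and the open point of Cox6a1 lies on the other side of 0.

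Complex I oxidizes NADH in a matrix arm that carries flavin and iron-sulfur clusters. Its 7 nuclear-encoded core subunits differed from its accessory subunits in direction, with a median log2 ratio of 0.19 for the core and -0.16 for the 29 accessory subunits. After subtraction of the GC trend the medians were 0.39 and -0.10, and after subtraction of the GC and length trends 0.48 and -0.02. The protein-coding genes with a mean of at least 100 RPKM had medians of 0.12 as deposited, 0.13 after GC subtraction and 0.17 after GC and length subtraction. Counting any size of difference, 6 core genes were higher in GFP-depleted EC and 1 was lower, while 7 accessory genes were higher there and 22 lower. The median of the whole complex was -0.11, and it was near 0 after subtraction of the GC and length trends (0.01) and among members without copies (-0.00). Past 1.5 fold, 1 member (2.63%) lay in each direction, where 23.6% of all genes lay toward bulk EC and 15.3% toward GFP-depleted EC.

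Ndufs1 (ENSMUSG00000025968, chromosome 1, 63190177 to 63223259, minus strand, mm9) encodes the largest core subunit, which holds iron-sulfur clusters of the NADH-oxidizing module. It was at 60.1 RPKM in bulk EC against 108.7 RPKM in GFP-depleted EC. GFP-depleted EC was thus 1.81-fold higher (1.75 to 1.87), and the log2 ratio of 0.85 was 0.74 after GC subtraction. The other core genes stayed within 1.5 fold. The flavin-binding subunit gene Ndufv1 was at 150.9 and 172.2 RPKM in bulk and GFP-depleted EC, and its partner Ndufv2 at 399.7 and 477.9. The genes of the cluster-bearing subunits Ndufs7 (300.2 and 302.3 RPKM) and Ndufs8 (349.5 and 369.1 RPKM) were close to equal. Ndufs3 alone among the core was lower in GFP-depleted EC, at 123.4 RPKM in bulk and 91.3 in GFP-depleted EC, and 68.4% of the windows of its transcript match elsewhere in the genome.

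Ndufs5 (ENSMUSG00000028648, chromosome 4, 123389953 to 123395429, minus strand) encodes an accessory subunit of the membrane side. It was at 119.3 RPKM in bulk EC against 51.4 RPKM in GFP-depleted EC. Bulk EC was 2.32-fold higher (2.10 to 2.57), with a log2 ratio of -1.21 and of -1.12 after GC subtraction. Its transcript is nearly repeated on another chromosome: of its windows of 100 bases, 90.7% match at 1 other place with at most 2 differences, where a read of 100 bases could have been placed. A window of its coding sequence and the copy at chr16:42955752-42955851 (mm9, plus strand) are shown to make that resemblance visible, with the differing bases in capitals.
Ndufs5: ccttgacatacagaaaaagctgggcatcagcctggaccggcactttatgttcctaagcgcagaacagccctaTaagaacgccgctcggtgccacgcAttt
copy: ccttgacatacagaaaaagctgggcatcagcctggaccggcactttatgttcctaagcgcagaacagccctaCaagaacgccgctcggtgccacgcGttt
Counted from 1 at the 5′ end of the window, the copy differs by T73C and A97G.

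Among the other members of complex I, Ndufa6 came closest to the threshold, at 935.8 RPKM in bulk EC against 648.6 in GFP-depleted EC, a 1.44-fold difference (1.40 to 1.48). Ndufa7 was at 888.3 and 796.5 RPKM. Both encode accessory subunits. The assembly factor gene Ndufaf2 was higher in GFP-depleted EC, at 182.6 RPKM in bulk EC and 240.9 there, below the threshold. After GC subtraction, Ndufa8, Ndufa13 and Ndufs8 moved just past 1.5 fold toward GFP-depleted EC. In Ndufa13, 30.2% of the exonic bases are shared with other genes, and the sources used here do not say whether reads were counted by strand.

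Complex II, succinate dehydrogenase, joins the respiratory chain to the citric acid cycle and is wholly nuclear-encoded. All 4 of its genes were higher in GFP-depleted EC, each within 1.5 fold, and the median log2 ratio was 0.30 (0.28 after GC subtraction). Of the 1202 protein-coding genes with a mean of at least 100 RPKM, 719 also had a positive ratio, and their median was 0.12 (0.13 after GC subtraction). The flavoprotein gene Sdha was at 235.5 RPKM in bulk EC against 288.5 in GFP-depleted EC. The iron-sulfur subunit gene Sdhb was at 561.1 and 573.0 RPKM, nearly equal, with a counting interval that held 1. The membrane anchor genes Sdhc (44.7 and 55.4 RPKM) and Sdhd (289.2 and 359.9 RPKM) had ratios of 0.31 and 0.32. No window of these 4 transcripts matches elsewhere in the genome. The level of Sdhc was the lowest of the complex in both libraries, as values per length.

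Complex III takes electrons from coenzyme Q to cytochrome c. Its median log2 ratio was -0.21 as deposited and 0.16 after GC subtraction, so the direction of the complex as a whole was not kept. The catalytic genes were both lower in GFP-depleted EC as deposited. Uqcrfs1 (ENSMUSG00000038462, chromosome 13, 30632322 to 30637192, minus strand), which encodes the Rieske iron-sulfur protein, was at 189.0 RPKM in bulk EC against 106.8 RPKM in GFP-depleted EC. This was a 1.77-fold difference (1.69 to 1.85), with a log2 ratio of -0.82 and of -0.86 after GC subtraction, and no window of the transcript matches elsewhere. Cyc1, the cytochrome c1 gene, was at 294.3 and 226.1 RPKM, and its ratio of -0.38 became 0.19 after GC subtraction.

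The core proteins of complex III, which build its matrix side, went in opposite directions. Uqcrc1 (ENSMUSG00000025651, chromosome 9, 108838721 to 108851666, plus strand) was at 397.0 RPKM in bulk EC against 236.9 in GFP-depleted EC, 1.68-fold higher in bulk EC (1.63 to 1.72). Uqcrc2 was at 217.8 and 298.8 RPKM, 1.37-fold higher in GFP-depleted EC (1.34 to 1.41). Exonic GC content was 57.5% in Uqcrc1 and 45.3% in Uqcrc2, and after GC subtraction their log2 ratios moved from -0.74 and 0.46 to -0.24 and 0.35. Of the small accessory genes, Uqcrh, which encodes the hinge protein, was at 462.0 and 558.4 RPKM and Uqcrb at 356.9 and 442.2. Uqcr, now named Uqcr11, was at 570.0 and 417.6 RPKM, and its ratio of -0.45 became 0.20 after GC subtraction.

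Complex IV, cytochrome c oxidase, reduces oxygen. Its catalytic subunits are encoded in the mitochondrial genome, so the members here are the subunits that surround them. Of the 10 accessory subunit genes 9 were higher in bulk EC, 4 of them past 1.5 fold, and the median log2 ratio of the 10 was -0.30 (-0.15 after GC subtraction). Toward bulk EC, 23.6% of all genes passed 1.5 fold, as did 9.9% of the protein-coding genes with a mean of at least 100 RPKM. The median of all 13 members was -0.09 as deposited, and 0.25 among the 4 members without copies (Cox6b1, Ndufa4 and the low tissue isoforms Cox6b2 and Cox7a1). These 10 genes stood high as a group, with median levels of 794.7 RPKM in bulk EC against 626.1 RPKM in GFP-depleted EC.

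Cox5a (ENSMUSG00000000088, chromosome 9, 57369105 to 57380230, plus strand) was at 774.7 RPKM in bulk EC against 414.8 RPKM in GFP-depleted EC, a 1.87-fold difference (1.81 to 1.93). Its log2 ratio was -0.90, and -0.86 after GC subtraction. Its exonic bases are shared with other genes to 38.7%, and reads of such bases cannot be told apart without strand. Cox6c (ENSMUSG00000014313, chromosome 15, 35861738 to 35867917, minus strand) was at 1315 and 854.2 RPKM, 1.54-fold higher in bulk EC (1.5 to 1.58), with a ratio of -0.70 after GC subtraction and 29.3% of its windows matching elsewhere. Cox8a (ENSMUSG00000035885, chromosome 19, 7289653 to 7292056, minus strand), the ubiquitous form of subunit VIII, was at 763.2 and 455.6 RPKM, 1.68-fold higher in bulk EC (1.62 to 1.73). Cox6a1 (ENSMUSG00000041697, chromosome 5, 115795664 to 115798965, minus strand), the ubiquitous form of subunit VIa, was at 548.6 and 356.2 RPKM, 1.54-fold higher in bulk EC (1.48 to 1.60). These last genes were the GC-richest of the called members, with 58.9% in Cox8a and 62.8% in Cox6a1. After GC subtraction the ratio of Cox8a was -0.12 and that of Cox6a1 was 0.27, the only call whose direction turned.

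Apart from Cox6c, the highest members of complex IV were within 1.5 fold. Ndufa4 was at 1172 RPKM in bulk EC against 1361 in GFP-depleted EC, Cox6b1 at 1364 and 1108, and Cox7a2 at 1172 and 1109. The tissue isoforms were low in both libraries beside these ubiquitous partners. Cox7a1 (ENSMUSG00000074218, chromosome 7, 30969190 to 30971047, plus strand), the heart and skeletal muscle form of subunit VIIa, was at 2.54 RPKM in bulk EC against 4.25 RPKM in GFP-depleted EC, from about 101 and 23 reads. GFP-depleted EC was 1.67-fold higher, but the interval of 1.04 to 2.71 reached well below the threshold. Cox6b2, the testis form of subunit VIb, was at 2.22 and 2.78 RPKM, with an interval that held 1. Of 9 listed muscle and cardiac genes (of 13), 5 were called toward bulk EC and 2 toward GFP-depleted EC, with summed levels of 35.7 and 19.8 RPKM. Over all genes, 23.6% were called toward bulk EC and 15.3% toward GFP-depleted EC. Myf6 was listed at 0 in GFP-depleted EC and Mb at 0 in bulk EC, and the part of such cells in the Cox7a1 difference was not tested. Cox7a2l, whose product joins complexes III and IV into supercomplexes, was at 231.4 and 217.5 RPKM.

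Cox7c stood apart by its level, 7.34 RPKM in bulk EC against 6.89 in GFP-depleted EC, among accessory subunits that otherwise lay above 200 RPKM. Of the windows of its transcript, 68.9% match elsewhere, at 7 places. A window of its coding sequence is shown, which is found unbroken, with at most 2 differences, at 3 or more other places of mm9. At 1 of them, chr11:75413356-75413455 on the minus strand, it has no difference. The gene itself on chromosome 13 holds this window only across a splice junction.
Cox7c: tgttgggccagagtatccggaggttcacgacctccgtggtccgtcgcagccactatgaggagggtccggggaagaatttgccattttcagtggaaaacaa

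**Figure D3:**
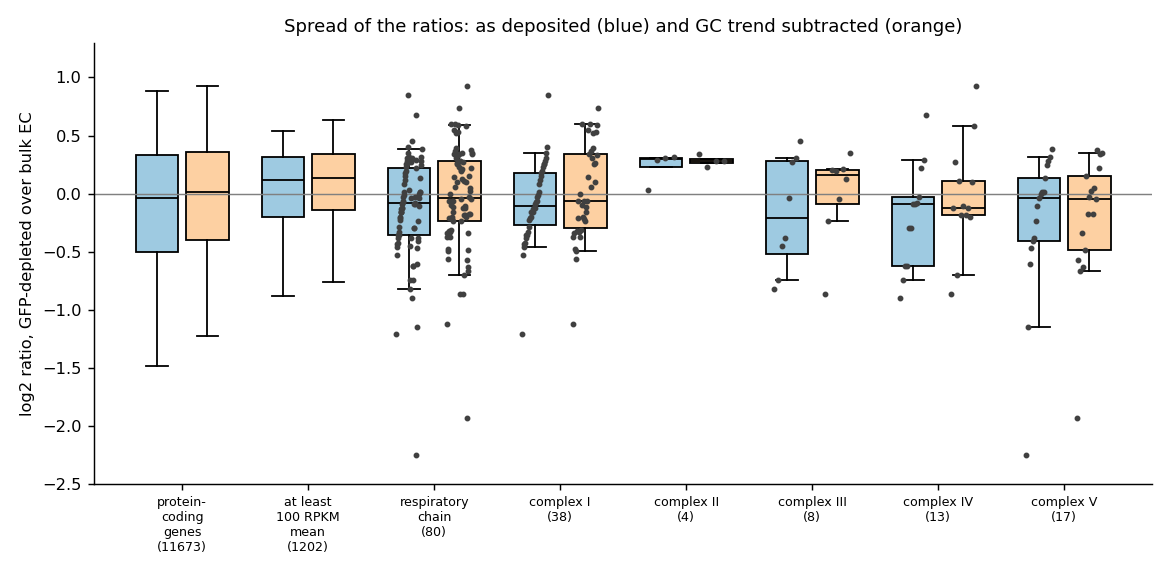
Log2 ratios (GFP-depleted over bulk EC) of protein-coding genes, of those with a mean of at least 100 RPKM, of the members and of each complex, with the number of genes in parentheses. Boxes show the quartiles with the median, whiskers the 5th and 95th percentiles, and points single members, for deposited values (blue) and after GC subtraction (orange, genes with a GC value). The median of complex II stands at 0.30 and that of complex III passes from -0.21 to 0.16.

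Complex V makes ATP with a catalytic head, a central stalk that turns with a ring of subunit c, and a peripheral stalk that holds the head in place. Its 17 members had a median log2 ratio of -0.04 (-0.05 after GC subtraction), with 3 past 1.5 fold on the bulk EC side and 0 on the other. Of all genes, 23.6% passed on the bulk EC side and 15.3% on the other. The catalytic head genes differed in direction: the alpha subunit gene Atp5a1 was at 501.6 RPKM in bulk EC against 596.3 in GFP-depleted EC, and the beta subunit gene Atp5b at 684.6 and 526.0. Neither passed 1.5 fold.

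In the central stalk, Atp5d (ENSMUSG00000003072, chromosome 10, 79604202 to 79608558, plus strand), the delta subunit gene, was at 224.5 RPKM in bulk EC against 101.1 RPKM in GFP-depleted EC. Bulk EC was 2.22-fold higher (2.10 to 2.35). Its GC content was 58.4%, and the log2 ratio of -1.15 became -0.57 after GC subtraction, within 1.5 fold. The gamma subunit gene Atp5c1 pointed the other way, at 330.2 RPKM in bulk EC against 410.9 in GFP-depleted EC. In the peripheral stalk, Atp5h (ENSMUSG00000034566, chromosome 11, 115277003 to 115281276, minus strand), the subunit d gene, was at 379.5 and 248.6 RPKM, just past the threshold at 1.53 fold (1.46 to 1.59), and 77.4% of its windows match at 4 other places. Atp5j2, the subunit f gene, was at 914.0 and 913.5 RPKM.

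The subunit c of the ring is made from several genes whose products differ in the targeting peptide but share the mature protein. Atp5g3 carried nearly all of the measured RNA, at 586.9 RPKM in bulk EC against 642.5 RPKM in GFP-depleted EC. Atp5g1 was at 15.9 and 14.7 RPKM, with an interval of the fold that held 1. Atp5g2 (ENSMUSG00000062683, chromosome 15, 102493299 to 102501478, minus strand) was at 1.80 and 0.14 RPKM, from about 128 reads and 1 read. The fold of 12.8 in favor of bulk EC had a counting interval of 3.01 to 679. The coding sequences were 67.4% to 69.1% identical between the genes, and 78.5% to 85.1% over their last 228 bases, where the mature protein is encoded.

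These genes differed in their copies. None of the windows of Atp5g3 match elsewhere in the genome, whereas 88.0% of those of Atp5g1 and 100% of those of Atp5g2 do, each at 4 places. A coding window of Atp5g2 is shown because it is found unbroken, with at most 2 differences, at 3 other places in mm9. Among them is chr17:5816241-5816340 on the minus strand, where the window has no difference. The gene itself holds this window only across a splice junction.
Atp5g2: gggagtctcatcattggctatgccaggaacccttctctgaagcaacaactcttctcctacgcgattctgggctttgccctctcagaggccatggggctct
Atp5l, the gene of the membrane subunit g, was likewise low, at 3.53 RPKM in bulk EC against 4.71 in GFP-depleted EC, with 90.5% of its windows matching at 12 places. Its window is present unbroken, with at most 2 differences, at 10 or more other places, for example chr5:24087412-24087511 on the minus strand.
Atp5l: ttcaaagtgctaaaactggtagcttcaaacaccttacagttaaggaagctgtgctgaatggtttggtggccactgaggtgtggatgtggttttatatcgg

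Over all members, 45 had no window that matches elsewhere, 19 had at least 20% and 11 at least 50%. This was 23.8% of the members with at least 20%, against 9.51% of protein-coding genes and 22.0% of those with a mean of at least 100 RPKM. Copies did not go with a low level throughout: Uqcrb, with 90.9% of its windows matching elsewhere, was above 350 RPKM in both libraries. Across the 80 members, Spearman's rho between the mean level and the share of matching windows was -0.12, given as a description over genes measured in the same libraries. Of the 10 members higher in bulk EC, Ndufs5, Cox6c, Atp5g2 and Atp5h had at least 20% of their windows matching elsewhere. Among the 45 members without copies, 3 (6.67%) were called toward bulk EC (Uqcrfs1, Uqcrc1 and Atp5d) and 2 (4.44%) toward GFP-depleted EC (Ndufs1 and Cox7a1). Over all genes the shares were 23.6% and 15.3%, and no share over all genes without copies is given here. How the authors placed reads that match several places is not given in the sources used here, so the part of the copies in these values was not tested.

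**Figure D4:**
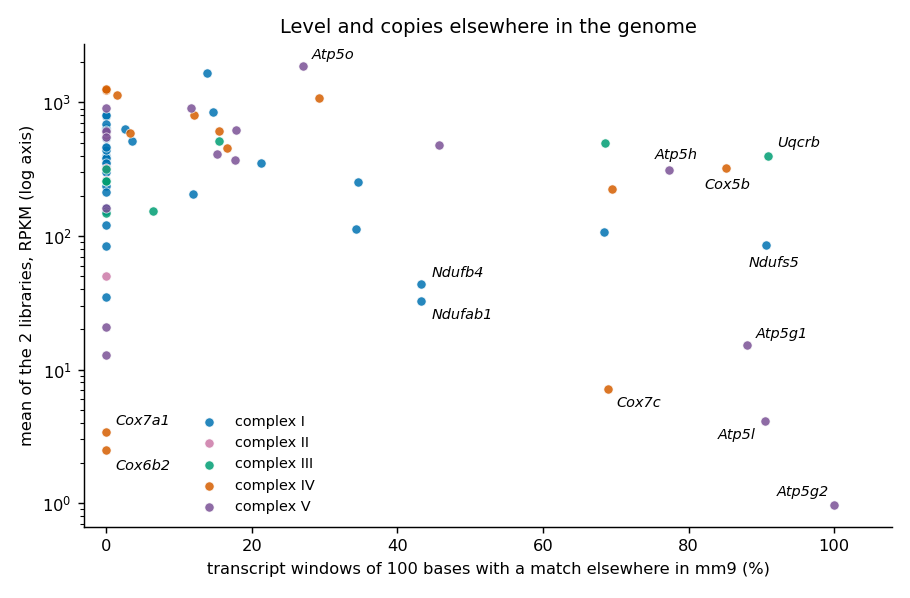
Mean RPKM of the 2 libraries (y axis, log) against the share of 100-base transcript windows that match elsewhere in mm9 (x axis, %), with 1 point per member colored by complex. Cox7c, Atp5g1, Atp5l and Atp5g2 combine a low level with a share above 60%, whereas Uqcrb and Cox5b have a share above 80% and a mean above 300 RPKM. Cox7a1 and Cox6b2 are low with no match.

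Base composition went with the ratios in the whole table. Across 11388 protein-coding genes Spearman's rho between the log2 ratio and exonic GC content was -0.37, and across the 80 members it was -0.20, both descriptions over genes of the same libraries. The members were close to other genes in GC content (median 50.2% against 49.6%) and shorter, with a median exon length of 1328 bases against 3585. With the trend subtracted, 7 members were higher in bulk EC, where 19.6% of all genes with a GC value were, and of these Ndufs5, Uqcrfs1, Cox5a, Cox6c, Atp5g2 and Atp5h were also called as deposited, and Atp5s was added. Toward GFP-depleted EC, where 16% of those genes were called, 6 members were, namely Ndufs1, Cox7a1, Cox6b2, Ndufa8, Ndufa13 and Ndufs8.

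Promoters were searched because respiratory chain genes are known targets of the factors NRF1, GABP and YY1. RefSeq windows (GRCm38.p6) from 250 bases before to 50 after the transcript start were found for 69 members, in 75 windows. The core of the NRF1 site, CGCATGCG, which reads the same on both strands, was in 9 member windows (12%, against 4.0% of all 11363 windows), in the genes Atp5g2, Atp5j, Atp5k, Atp5l, Cox6a1, Ndufa8, Ndufa11, Uqcr and Uqcrc1. With a free base, CGCANGCG on either strand, which includes the former, it was in 30 windows (40% against 17.3%). The GABP motif CCGGAAG on either strand was in 17 (22.7% against 18.1%), the YY1 motif AAGATGGCG on either strand in 9 (12% against 3.19%) and CCAAT on either strand in 32 (42.7% against 37.9%). These are matches of letters and describe the windows only.

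Stretches around CGCATGCG (Cox6a1 and Atp5g2) or CGCANGCG (Ndufs5 and Atp5h) are shown for called members that hold either before the start. The letters of the motif are in capitals, and all stretches are read toward the gene on the minus strand.
Ndufs5, chr4:123718249-123718308: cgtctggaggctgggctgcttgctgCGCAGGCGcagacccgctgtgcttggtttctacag
Cox6a1, chr5:115349085-115349144: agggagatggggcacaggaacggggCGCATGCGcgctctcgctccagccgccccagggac
Atp5g2, chr15:102671054-102671113: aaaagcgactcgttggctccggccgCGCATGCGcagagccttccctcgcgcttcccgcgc
Atp5h, chr11:115420025-115420084: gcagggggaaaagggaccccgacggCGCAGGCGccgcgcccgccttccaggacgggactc
Between the motif and the start lie 89 bases in Ndufs5, 153 in Cox6a1, 33 in Atp5g2 and 132 in Atp5h. Cox6a1 holds a further match of CGCANGCG in its promoter window, outside the stretch shown. Members with and without CGCANGCG had median log2 ratios of -0.15 (26 genes) and -0.09 (43 genes). The medians with and without were -0.24 and -0.10 for CGCATGCG, -0.21 and -0.09 for the GABP motif, -0.07 and -0.10 for the YY1 motif and -0.10 and -0.13 for CCAAT.

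Of 7 further subunit genes that the symbols did not reach, 4 were listed, and these were within 1.5 fold. Cox4i1, the ubiquitous subunit IV gene of complex IV, was at 1284 RPKM in bulk EC against 1447 in GFP-depleted EC. Atpif1, which encodes the inhibitor of ATP synthase, was at 1856 and 1944 RPKM. Outside that list, the entry 1110020P15Rik, described in the table as a cytochrome b-c1 subunit, was at 1526 and 1429 RPKM.

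Genes that build or feed the chain had lower median levels than its members in both libraries. In bulk and GFP-depleted EC these were 17.3 and 19.6 RPKM for assembly factors and 19.5 and 17.2 for coenzyme Q synthesis. For other inputs of electrons they were 22.1 and 26.3 RPKM. Single genes stood far above these medians in both libraries. The assembly factor gene Ccdc56 was at 839.6 RPKM in bulk EC against 874.5 in GFP-depleted EC. Etfb, of an electron input, was at 329.4 and 363.5. Of 41 further assembly factors 25 were listed, of which 4 were called toward bulk EC and 2 the other way, and their median log2 ratio was -0.09. Over all genes, the shares called were 23.6% toward bulk EC and 15.3% the other way. Tmem70, an ATP synthase assembly factor, was at 44.1 RPKM in bulk EC against 18.4 RPKM in GFP-depleted EC. Atpaf1, a chaperone of the catalytic head, was at 5.59 and 0.89 RPKM, and 71.5% of its windows match elsewhere. Of 12 listed coenzyme Q synthesis genes (of 13), 3 were called toward bulk EC and 1 the other way, the latter being Coq3 at 8.75 and 18.2 RPKM. Of the 8 genes of other routes into coenzyme Q, 1 was called toward bulk EC and 2 the other way, among them Sqrdl, the sulfide oxidizing enzyme gene, at 4.97 and 15.1 RPKM.

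All 16 regulators of mitochondrial biogenesis in the list had an entry, of which 3 were called toward bulk EC and 2 the other way, and their median log2 ratio was -0.00. The shares over all genes were 23.6% and 15.3%. Of the factors whose motifs were searched, Nrf1 (11.3 and 14.2 RPKM) and Gabpa (11.4 and 10.01 RPKM), were within 1.5 fold, as was Tfam, the packaging factor of mitochondrial DNA, at 36.4 and 38.2. Polrmt, the mitochondrial RNA polymerase gene, was at 11.7 RPKM in bulk EC against 4.55 in GFP-depleted EC. Esrra, an orphan nuclear receptor that drives respiratory genes, was at 7.08 and 2.89 RPKM. After GC subtraction their log2 ratios moved from -1.31 and -1.21 to -0.59 and -0.39. The coactivator Ppargc1a was at 1.39 and 0.75 RPKM, and Ppargc1b at 0.58 and 0.53.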

How the data were processed

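RNA of sorted EC was sequenced in 1 library per group. The authors amplified cDNA with a SMART kit, sequenced the indexed libraries in 1 HiSeq lane, aligned reads to mm9 and deposited 1 table with an RPKM value per gene and library. BWA 0.5.7 and Cuffdiff are named, without a role, in the submitters' processing notes. Not given in the sources used here are the annotation, the use of strand and the handling of reads with several matches. A deposited column holds the authors' ratio of the libraries and was not used. GFP+ HE appear in the results text of the study where the labels and methods have GFP- EC, and groups were taken from the labels.

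The table held 12899 entries. For repeated symbols only the highest entry by mean entered, and 215 were left out. The lowest mean was 0.50 RPKM, a sign of a filter before deposit. Calls used the plain ratio (above 1.5, at least 0.3 RPKM in 1 library), and log2 ratios a pseudocount of 0.3 RPKM. The members and lists were chosen with earlier results of these data known. Members named were all those called, the highest and most different of each complex, and the core, head, ring and isoform genes. A few others (Ndufa8, Ndufa13, Atp5j, Atp5k, Ndufa11, Atp5s, Cox5b, Cox7a2 and, outside the members, Ccdc56 and Etfb) were named after their values were seen, for a changed call, a motif or a partner isoform. The values of 1 complex I gene are not reported here, though it is counted in the totals.

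Depth was recovered from values of features under 150 bases, which are multiples of what 1 covered base of a 100-base read adds: in bulk EC 100% of 32 values were whole within 0.15, and among 158 values of GFP-depleted EC 98.7% were. The step was picked to make these same values whole, so these shares are no separate check on the depth. Read numbers rest on GENCODE M1 transcript lengths and are approximate. GC content, exon length and overlap came from GENCODE M1 (mm9), which matched all 80 members and gave a GC value for 95.7% of genes. The GC trend was a lowess fit over 10382 protein-coding genes (statsmodels 0.14.6). Transcripts (longest coding sequence) were cut into windows of 100 bases every 10 bases and aligned to mm9 with minimap2 2.31, and a match elsewhere needed at least 95 aligned bases with at most 2 edits. Coordinates are 1-based. Members without a RefSeq promoter window here included Atp5a1, Cox6c, Cyc1, Ndufa2, Ndufb9, Ndufs1, Sdhc, Uqcrb, Uqcrc2 and Uqcrq. Alternatives were another pseudocount, threshold, filter and scaling, GC and length subtraction, whole counting intervals, and members without shared exonic bases and, added after the data were seen, members without copies and 0.3 RPKM in both libraries. Scripts (Python 3.11.15, pandas 2.3.3, scipy 1.17.1) were tested on simulated data.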

Additional observations from a re-analysis of the deposited data

How the results depend on the processing

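The 10 members higher in bulk EC became 3 at a threshold of 2 fold, 6 after GC and length subtraction and 3 among members without copies. The 2 higher in GFP-depleted EC became 1 with a pseudocount of 1 RPKM, with the whole counting interval past 1.5 fold and among members without shared exonic bases, 0 at 2 fold, 6 after GC subtraction and 9 after GC and length subtraction. Over all genes, the share higher in GFP-depleted EC (15.3%) became 10.3% with a pseudocount of 1 RPKM, 6.61% at 2 fold, 7.69% with whole intervals, 16.7% after GC and 18.7% after GC and length subtraction, and that higher in bulk EC (23.6%) became 13.3% at 2 fold and 18.2% after GC and length subtraction. Quantile scaling split the calls over all genes into 2430 toward bulk EC and 2637 toward GFP-depleted EC, against 2997 and 1939 as deposited. The median over the members (-0.08) moved to -0.016 under quantile scaling, 0.043 after GC and length subtraction and 0.010 without copies. Quantile scaling also moved the median of all genes from -0.02 to 0.10. For complex I the same settings gave -0.047, 0.0081 and -0.00042. For complex III the median became 0.16 after GC subtraction, 0.15 after GC and length subtraction, -0.56 without copies and -0.41 without shared exonic bases. Without copies the medians were 0.25 for complex IV and -0.38 for complex V, and without shared exonic bases that of complex V was -0.10. The 7 members of complex V without copies include Atp5s and Atp5sl, which are not structural parts of the complex. The log2 ratio of Cox6a1 turned to 0.27 and 0.30 after GC and GC with length subtraction. Causes of these shifts were not tested. Complex II stayed positive under every setting tried. No paired analysis was possible because there was 1 library per group. The spread between libraries of a group is unknown, and depth limits mainly Atp5g2, Cox7a1, Cox6b2, Cox7c and Atp5l.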

Other observations

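Other mitochondrial genes around the respiratory chain were looked at in the same libraries. Of 23 listed genes of the import machinery (of 24), 3 passed 1.5 fold toward bulk EC and 0 the other way, around a median log2 ratio of 0.03. Among all genes 23.6% passed toward bulk EC and 15.3% the other way, which holds beside each count in this paragraph. The outer membrane receptor gene Tomm20 was at 82.8 RPKM in bulk EC against 20.9 RPKM in GFP-depleted EC, and the channel gene Tomm40 at 13.7 and 3.39. Of the windows of Tomm20, 70.2% match elsewhere in the genome, at 12 places. Timm50, of the inner membrane translocase, was at 132.4 and 72.5 RPKM, and its log2 ratio of -0.87 became -0.40 after GC subtraction, within 1.5 fold. Of the 6 listed carriers and porins (of 7), which exchange ATP, ADP and phosphate across the mitochondrial membranes, 1 passed toward bulk EC, around a median log2 ratio of 0.35. That gene was the phosphate carrier gene Slc25a3, at 507.3 and 239.9 RPKM. The ADP and ATP carrier genes pointed the other way within 1.5 fold, with Slc25a5 at 1929 and 2874 RPKM and Slc25a4 at 1348 and 1752. Windows matching elsewhere made up 81.7% of those of Slc25a5. Of 8 listed genes of mitochondrial DNA replication (of 9), 2 were higher in bulk EC, among them Rrm2b at 2.33 and 0.79 RPKM. Of the 5 listed mesenchymal markers (of 9), 4 passed toward bulk EC and 1 the other way, with summed levels of 6.39 and 3.90 RPKM.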
